A study of Mus musculus with 35 samples.

Results

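Retinoic acid is made in cells from vitamin A and acts as a short-lived signal. Retinol is oxidised to retinal by retinol dehydrogenases, and retinal is oxidised to retinoic acid by the Aldh1a enzymes. The Cyp26 enzymes of the cytochrome P450 family clear retinoic acid from the cell, and Crabp2 is a carrier that delivers it to the nucleus. There the receptors Rara, Rarb and Rarg bind DNA as partners of Rxra, and Cyp26a1 is itself a classical target gene of these receptors. In the kidney retinoic acid is known for its part in nephron formation and in the differentiation of podocytes, the epithelial cells that carry the filtration slits of the glomerulus. The genes described here are 9 of the 33292 genes in the table of expression values, namely Aldh1a1, Aldh1a2, Cyp26a1, Cyp26b1, Crabp2, Rara, Rarb, Rarg and Rxra. They were taken as a gene set around Cyp26a1, which was picked because its mRNA was nearly lost in DMSO-treated knock-in mice, and each of the 9 was detected in some of the mice. The levels in the DMSO-treated groups therefore chose the set, and for its members the comparisons of genotypes under DMSO are given as a description with no test. The genotype difference of Cyp26a1 is a description under bortezomib too.

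The podocytes came from 35 mice of 3 genotypes, which the labels call WT, H77L and C118F. In the study's methods the WT mice are Lmx1b +/lox, and the other two genotypes pair the H77L or the C118F allele with a lox allele (H77L/lox and C118F/lox). Lmx1b encodes a LIM-homeodomain transcription factor, and H77L and C118F are missense changes in its LIM domains. All mice, controls included, carried a lox allele of Lmx1b, a doxycycline-dependent Cre recombinase (tetO::Cre) active in podocytes and the mT/mG reporter that turns recombined cells green. They were 7 to 10 weeks old, drank doxycycline at 2 mg/ml until day 7 and received the proteasome inhibitor bortezomib (0.3 μg per g body weight) or its solvent DMSO by injection on alternate days. After recombination the knock-in podocytes were thus left with the mutant allele and the controls with the wild-type allele. There were 6 mice in a group, and 5 among the bortezomib-treated C118F/lox mice. Values are TPM, reads per gene divided by gene length and scaled to a sum of 1000000 in each mouse. Levels of different genes can be compared only as far as the gene length used matches the transcripts present, which was not tested.

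Green cells were collected by FACS, and each mouse gave 1 library of poly(A) RNA. The depth recovered from the TPM steps ranged from 5269224 to 24149277 reads with a median of 19167902, and the shallowest library was replicate 2 of the bortezomib-treated C118F/lox mice. The podocyte markers were present in all groups, with all 10 marker genes above a median of 1 TPM. Their summed level was 23000 to 39300 TPM in +/lox mice and 6610 to 16400 TPM in knock-in mice. Among the 6 mesangial and smooth muscle markers the sum was 37.6 to 157 TPM in +/lox mice and 398 to 3190 TPM in knock-in mice. Pdgfrb and Des made up most of that sum, while the mesangial markers Itga8 and Gata3 had medians of at most 0.363 TPM in every group. The 4 parietal epithelial markers summed to 29.0 to 53.0 TPM in +/lox mice and to 70.5 to 225 TPM in knock-in mice. In bulk RNA a change in the cells collected and a change in RNA per cell cannot be told apart, and the part of these markers in the results below was not tested. The tubule markers reached 1030 TPM in replicate 2 of the DMSO-treated +/lox mice and the leukocyte markers 356 TPM in replicate 1. The 7 endothelial markers summed to 11.9 to 107 TPM over all mice. Replicate 1 of the DMSO-treated C118F/lox mice had the highest endothelial and mesangial sums, 107 and 3190 TPM. Lmx1b mRNA ranged from 44.8 to 125 TPM in +/lox mice and from 37.4 to 185 TPM in knock-in mice, but since the alleles are missense changes its level is no check of the labels.

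Cyp26a1 lies on the plus strand of chromosome 19 (chr19:37686241-37689984, GRCm39). The 300 bases before its annotated start (chr19:37685941-37686240, GRCm39, plus strand) are shown because Cyp26a1 carries the largest difference of the set. Capitals mark both hexamers of a match to the direct repeat that retinoic acid receptors are known to bind.
Cyp26a1 promoter: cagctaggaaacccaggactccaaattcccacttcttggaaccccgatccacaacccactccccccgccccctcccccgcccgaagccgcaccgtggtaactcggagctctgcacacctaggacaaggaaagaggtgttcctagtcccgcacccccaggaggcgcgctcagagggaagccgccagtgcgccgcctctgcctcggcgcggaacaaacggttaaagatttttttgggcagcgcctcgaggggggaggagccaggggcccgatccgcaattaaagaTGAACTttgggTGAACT
Read on the other strand, the element was a direct repeat of the hexamer AGTTCA with a spacing of 5 bases, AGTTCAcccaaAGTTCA, and it occupied the last 17 bases before the start. Both strands of the 300 bases before the start of 21769 protein-coding genes were searched for direct repeats of the hexamer AGGTCA, its variant AGTTCA, the hexamer GGGTCA and its variant GGTTCA, in any pairing. A spacing of 5 bases was found in 18 of them (0.0827%), and a spacing of 5, 2 or 1 in 116 (0.533%). Cyp26a1 was the single member with a match, and the windows of the other members held no such direct repeat at the annotated start used. Each gene was searched at 1 start, and its other starts were not searched. The window of Rarb (chr14:5893636-5893935) lay inside the annotated gene (chr14:5650540-6041094), so an element elsewhere in it would be missed. The homeodomain core TAATTA was found in 6.35% of all windows and in none of the members. Such a match is a description of letters, not of binding.

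Of the 18 genes with a spacing of 5 before their start, 7 passed the filter on low values (1 of the groups compared had to exceed 1 TPM in all of its mice) and were tested in the comparisons of genotypes. Besides Cyp26a1, 2 of the other 6 were lower in each knock-in line under DMSO and 1 of 6 under bortezomib, at an adjusted p under 0.05, where 44.8% and 30.4% of all genes tested were called under DMSO and 23.6% and 27.5% under bortezomib in H77L/lox and C118F/lox mice. Of the same 6, 2 were higher in H77L/lox and 1 in C118F/lox mice under DMSO, and 1 in each line under bortezomib. Under bortezomib their log2 differences ranged from -0.55 to 1.91 in H77L/lox and from -0.52 to 1.24 in C118F/lox mice. With 2 of 6 called in each line under bortezomib, the share is near that of all genes.

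Cyp26a1, the main enzyme that degrades retinoic acid, was abundant in control podocytes and almost absent from knock-in podocytes of both lines and both treatments. In DMSO-treated +/lox mice the lowest level was 66.2 TPM, the median 83.9 and the highest 129. In bortezomib-treated +/lox mice these values were 59.6, 89.1 and 126 TPM. In DMSO-treated H77L/lox mice the median was 0 and the highest value 0.718 TPM, and in bortezomib-treated H77L/lox mice the median was 0 and the highest value 0.267 TPM. In both of these groups 4 of 6 mice were at 0. In DMSO-treated C118F/lox mice 3 of 6 were at 0, the median was 0.0440 and the highest value 0.156 TPM. In the bortezomib-treated C118F/lox mice the 5 values were 0, 0, 0, 0.0841 and 2.06 TPM. No knock-in mouse reached the level of any +/lox mouse, and the groups did not overlap.

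In reads, the 12 +/lox mice had 11654 reads of Cyp26a1, between 576 and 1596 in a mouse, whereas the 23 knock-in mice had 24 reads altogether. Of the knock-in mice 14 had none, 7 had 1 to 3 and 2 had more. These 2 were replicate 5 of the DMSO-treated H77L/lox mice with 8 reads and replicate 2 of the bortezomib-treated C118F/lox mice with 6 reads, which was the shallowest library. In the mice at 0 an upper limit of 3 reads would amount to 0.228 to 0.397 TPM, a limit that covers counting error only. The log2 difference from +/lox mice was -6.33 in H77L/lox and -6.40 in C118F/lox mice under DMSO, and -6.36 and -6.09 under bortezomib. It was the largest fall of all genes tested in each of the 4 comparisons. Cyp26a1 was picked for its near loss, so nothing is read from this rank. With values at 0 the size of the log2 difference is set by the pseudocount of 1 added before taking logs. With a pseudocount of 0.1 it was -9.27 and -8.68 under bortezomib.

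Bortezomib itself left Cyp26a1 of control podocytes within the spread of the mice. The log2 difference between bortezomib- and DMSO-treated +/lox mice was -0.04 with a 95% interval from -0.49 to 0.42 (adjusted p = 0.964, limma). In the knock-in mice Cyp26a1 was at or near 0 under both treatments, so a response to bortezomib could not be measured there.

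**Figure D1:**
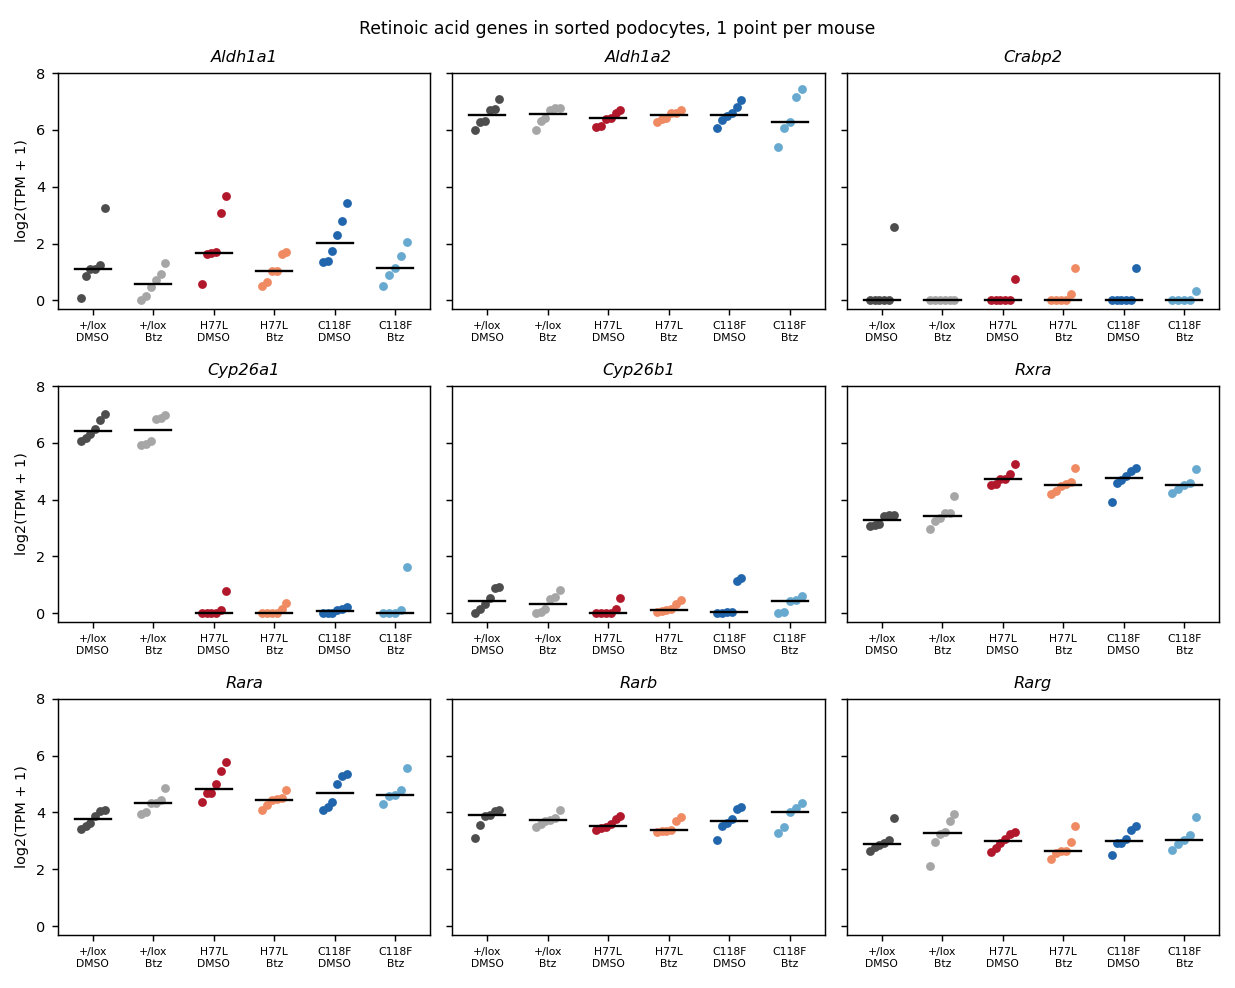
Levels of the 9 genes as log2(TPM + 1) in the 6 groups of genotype and treatment (Btz, bortezomib), with 1 point per mouse, sorted within a group, and a line at the median. Cyp26a1 is as high as Aldh1a2 in the +/lox mice and below 2 in all knock-in mice, Rxra is higher in the knock-in mice of either treatment, and Crabp2 is at 0 in 29 of 35 mice.

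The related enzyme Cyp26b1, which also hydroxylates retinoic acid, was near 0 in all groups. Its highest value over all 35 mice was 1.39 TPM, and its median was 0.330 TPM over +/lox and 0.0660 TPM over knock-in mice. Over both treatments the 12 +/lox mice had 126 reads and the 23 knock-in mice 142, of which 37 each came from replicates 1 and 4 of the DMSO-treated C118F/lox mice. Replicate 1 is the mouse with the highest mesangial marker sum, and replicate 4 had 134 TPM of tubule markers. Cyp26b1 was under the filter on low values in all comparisons. Without the filter, its log2 difference from +/lox mice under bortezomib was -0.15 ± 0.14 (SE) in H77L/lox (adjusted p = 0.598) and -0.04 ± 0.17 in C118F/lox mice (adjusted p = 0.907). The other family member Cyp26c1, which is not in the set, lies 2.17 kb from Cyp26a1 and was at 0 in 30 of 35 mice with at most 0.440 TPM.

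Of the genes around Cyp26a1, Exoc6 and Myof were still transcribed in the knock-in mice. Within 250 kb lie 3 other protein-coding genes, looked at after the values of Cyp26a1 had been seen. Of these, 2 passed the filter, while Cyp26c1 was near 0 in all groups. Exoc6, a subunit of the exocyst 13.6 kb away, had medians of 53.1 TPM in DMSO-treated and 58.6 TPM in bortezomib-treated +/lox mice and between 40.6 and 46.6 TPM in the knock-in groups. The log2 difference of Exoc6 was -0.43 in H77L/lox (adjusted p = 0.00314) and -0.38 in C118F/lox mice (adjusted p = 0.0299) under DMSO. Under bortezomib it was -0.35 in H77L/lox (adjusted p = 0.0407) and -0.39 in C118F/lox mice (adjusted p = 0.0336). The medians of Myof, a membrane repair protein 198 kb away, were 76.4 and 103 TPM in +/lox and 121 to 184 TPM in the knock-in groups. The log2 difference of Myof was 1.11 in H77L/lox (adjusted p = 2.92e-05) and 0.83 in C118F/lox mice (adjusted p = 0.0466) under DMSO. Under bortezomib it was 0.25 in H77L/lox (adjusted p = 0.193) and 0.67 in C118F/lox mice (adjusted p = 0.00895).

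Likeness in profile to Cyp26a1 over the groups was also measured. The measure was the root mean square difference of the mean log2(TPM + 1) changes from DMSO-treated +/lox mice over the other 5 groups, among 11306 genes. The nearest were the tight junction gene Cldn5 with a difference of 1.76, the cell cycle inhibitor Cdkn1c with 1.87, the growth factor carrier Fgfbp1 with 2.03, Gm45274 with 2.06 and the sorting nexin gene Snx31 with 2.10. Cldn5 fell from medians of 1814 and 1594 TPM in +/lox mice to 59.2 to 130 TPM in the knock-in groups, a level still well above 0. Fgfbp1, at a control level like that of Cyp26a1 (74.6 and 89.7 TPM), kept medians of 2.47 to 7.07 TPM.

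Aldh1a2 (chr9:71122630-71203527, GRCm39, plus strand), which makes retinoic acid, had the highest TPM of the members together with Cyp26a1 in control podocytes. Its medians lay between 76.9 and 94.3 TPM over the 6 groups. The median was 91.1 TPM in DMSO-treated +/lox mice, with 63.6 and 135 TPM as the lowest and highest values. In bortezomib-treated +/lox mice it was 94.3 TPM, ranging from 63.5 to 110 TPM. In H77L/lox mice the medians were 84.6 TPM under DMSO and 90.5 TPM under bortezomib, with all 12 mice between 68.0 and 103 TPM. C118F/lox mice had medians of 92.0 TPM under DMSO and 76.9 TPM under bortezomib, and the values spread from 41.2 to 174 TPM. All groups overlapped. Under bortezomib the log2 difference from +/lox mice was -0.0017 in H77L/lox mice (95% interval from -0.27 to 0.27, adjusted p = 0.995) and -0.03 in C118F/lox mice (95% interval from -0.67 to 0.60, adjusted p = 0.951). The interval is narrow in H77L/lox mice and wide in C118F/lox mice, where it does not show that the levels were alike.

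Aldh1a1, a second enzyme of this step, was low in all groups and varied from mouse to mouse. In +/lox mice the medians were 1.16 TPM under DMSO and 0.510 TPM under bortezomib, and 1 DMSO-treated mouse, replicate 1, had 8.45 TPM. This mouse also had the highest sum of leukocyte markers. In the DMSO-treated groups the medians were 2.19 TPM in H77L/lox and 3.15 TPM in C118F/lox mice, and under bortezomib they were 1.06 and 1.20 TPM. Within each treatment the genotypes overlapped. Aldh1a1 passed the filter only through the DMSO-treated C118F/lox mice, with 1.57 TPM as their lowest value. A comparison of these mice with bortezomib-treated mice of the line starts from the group that let the gene pass, so it is no fair test of a fall. Reads of Aldh1a1 may be shared with its near copy Aldh1a7, which was at 0 in 24 of 35 mice.

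The carrier Crabp2 was at 0 in 29 of 35 mice and gave 59 reads in the whole series, 34 of them in replicate 1 of the DMSO-treated +/lox mice at 4.94 TPM. The other 11 +/lox mice were at 0, and 5 of the 23 knock-in mice had between 0.156 and 1.20 TPM. Crabp2 did not pass the filter in any comparison. At this depth no difference between groups was detectable.

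Rxra (chr2:27566452-27653330, GRCm39, plus strand), the common partner of the retinoic acid receptors and of many other nuclear receptors, was the 1 member called as higher in both knock-in lines under bortezomib. DMSO-treated +/lox mice had a lowest value of 7.36 TPM, a median of 8.73 and a highest value of 10.1. In bortezomib-treated +/lox mice these were 6.82, 9.87 and 16.3 TPM. DMSO-treated H77L/lox mice had 22.0, 25.5 and 37.5 TPM and DMSO-treated C118F/lox mice 14.0, 26.1 and 33.6 TPM. Within each treatment, all knock-in mice lay above all +/lox mice. The lowest of the DMSO-treated C118F/lox mice was replicate 1 with the highest mesangial sum, and without it the log2 difference was 1.57 in place of 1.42.

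Under bortezomib, in mice that did not serve to choose the set, Rxra was higher in both lines. Bortezomib-treated H77L/lox mice had a lowest value of 17.5 TPM, a median of 22.1 and a highest value of 33.2. The bortezomib-treated C118F/lox mice had 17.6, 19.8, 21.7, 23.3 and 32.6 TPM. The lowest knock-in mouse of this treatment was thus above the highest +/lox mouse. How many of all genes tested separate in this way was not counted, so the separation is a description of Rxra and not a trait particular to it. The rise was 1.09 ± 0.19 (SE) on the log2 scale in H77L/lox mice (95% interval from 0.70 to 1.49, adjusted p = 4.04e-04, limma). In C118F/lox mice it was 1.10 ± 0.20 (95% interval from 0.67 to 1.54, adjusted p = 9.64e-04). Mean levels were 2.22 and 2.24 times those of +/lox mice. Leaving out each mouse in turn gave log2 rises of 0.98 to 1.22 in H77L/lox and 0.98 to 1.24 in C118F/lox mice. The lines did not differ beyond their spread, with a log2 difference of 0.01 (95% interval from -0.36 to 0.38, adjusted p = 0.984).

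Of the members, 6 passed the filter in each of the comparisons with +/lox mice under bortezomib, 1 of them being Cyp26a1, whose loss chose the set and whose call is not counted. Of the other 5, Rxra was called at an adjusted p under 0.05, in both lines. Of all genes tested, 23.6% were called in H77L/lox and 27.5% in C118F/lox mice, so 1 of 5 is near the background. Under DMSO 3 of 6 members were called in H77L/lox mice, where 44.8% of all genes were called, and 3 of 7 in C118F/lox mice, where 30.4% were called. In both lines these were Cyp26a1, Rxra and Rara, and since these comparisons chose the set nothing is read from the counts. With the cutoffs of the study, an adjusted p under 0.001 and a log2 difference beyond 2 in either direction, Cyp26a1 was the 1 member called in each of the 4 comparisons. The background of this rule was 2.17% and 2.27% under DMSO and 1.2% and 1.93% under bortezomib in H77L/lox and C118F/lox mice. Cyp26a1 passed the filter through the +/lox mice alone, and nothing is read from its calls.

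**Figure D2:**
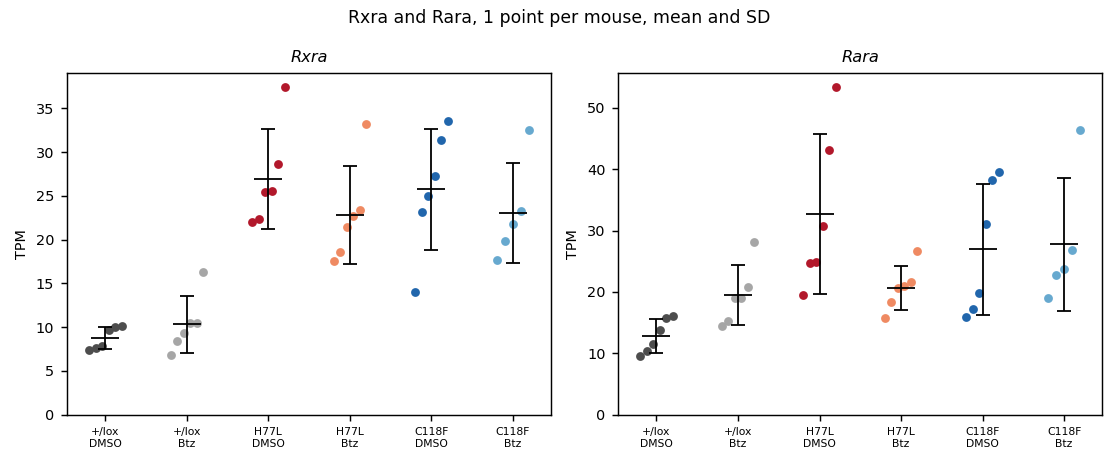
TPM of Rxra and Rara in the 6 groups (Btz, bortezomib), with 1 point per mouse and the mean with its SD as bars. Rxra separates knock-in from +/lox mice within both treatments, while Rara does so completely in DMSO-treated H77L/lox mice only and overlaps in all groups under bortezomib.

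Rara (chr11:98818612-98865768, GRCm39, plus strand), the alpha form of the receptor, had a different order of groups. DMSO-treated +/lox mice had a lowest value of 9.60 TPM, a median of 12.6 and a highest value of 16.0, and bortezomib-treated +/lox mice 14.4, 19.1 and 28.1 TPM. DMSO-treated H77L/lox mice had 19.5, 27.8 and 53.5 TPM and bortezomib-treated H77L/lox mice 15.8, 20.9 and 26.6 TPM. The control level was thus higher and the H77L/lox level lower with bortezomib. DMSO-treated C118F/lox mice had 15.9, 25.4 and 39.5 TPM, and the bortezomib-treated ones had 18.9, 22.8, 23.8, 26.9 and 46.5 TPM.

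The log2 difference of Rara from +/lox mice was 1.23 in H77L/lox and 0.95 in C118F/lox mice under DMSO, as a description. Under bortezomib it was 0.10 ± 0.16 in H77L/lox mice (95% interval from -0.24 to 0.43, adjusted p = 0.706) and 0.46 ± 0.21 in C118F/lox mice (95% interval from -0.0034 to 0.92, adjusted p = 0.133), neither of which was called. Between bortezomib- and DMSO-treated mice it was 0.56 in +/lox mice (adjusted p = 0.560), -0.57 in H77L/lox mice (adjusted p = 0.145) and 0.06 in C118F/lox mice (adjusted p = 0.967). The difference of the responses of H77L/lox and +/lox mice was -1.13 ± 0.28 (95% interval from -1.70 to -0.55) with a p of 4.63e-04 in limma before and 0.0814 after the correction over all genes. It was not called. The adjusted p was 0.0856 to 0.203 over the other settings with all mice, and 0.0365 without replicate 1 of the bortezomib-treated +/lox mice. The responses of H77L/lox and C118F/lox mice differed by -0.63 (95% interval from -1.39 to 0.12, adjusted p = 0.658).

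Rarb and Rarg, the other receptors, stayed within the spread between mice. Rarb, which in many tissues is induced by retinoic acid, had group medians of 9.31 to 15.3 TPM and Rarg of 5.28 to 8.63 TPM. In both genes the values of all groups overlapped. Under bortezomib the log2 difference of Rarb from +/lox mice was -0.24 in H77L/lox (95% interval from -0.54 to 0.06, adjusted p = 0.241) and 0.12 in C118F/lox mice (95% interval from -0.30 to 0.55, adjusted p = 0.682). For Rarg it was -0.42 in H77L/lox mice (95% interval from -0.9997 to 0.15, adjusted p = 0.296) and -0.07 in C118F/lox mice (95% interval from -0.71 to 0.56, adjusted p = 0.883). The difference of Rarg in H77L/lox mice was -0.64 (adjusted p = 0.0485) without replicate 1 of the bortezomib-treated +/lox mice, the mouse with the lowest Rarg, 3.32 TPM.

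No member passed the test for bortezomib against DMSO within a genotype. In limma 0 of 6 members tested were called in +/lox mice, 0 of 5 in H77L/lox mice and 0 of 6 in C118F/lox mice, where 0%, 1.16% and 0% of all genes were called. In each of these comparisons 1 member had an unadjusted p under 0.05, Rara in +/lox and H77L/lox mice and in C118F/lox mice Aldh1a1, which had passed the filter through the higher group. No member differed between the lines either, with 0 of 6 called under DMSO and 0 of 5 under bortezomib, against 0% and 0.972% of all genes, and with 0 at an unadjusted p under 0.05. For the differences between responses 0 of 6 members were called for H77L/lox against +/lox mice, 0 of 7 for C118F/lox against +/lox and 0 of 6 for H77L/lox against C118F/lox mice, where 0% of all genes were called in each. In the first of these 1 member, Rara, had an unadjusted p under 0.05, and in the others 0. A test on the recovered reads called 0 members in all 8 comparisons as well.

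**Figure D3:**
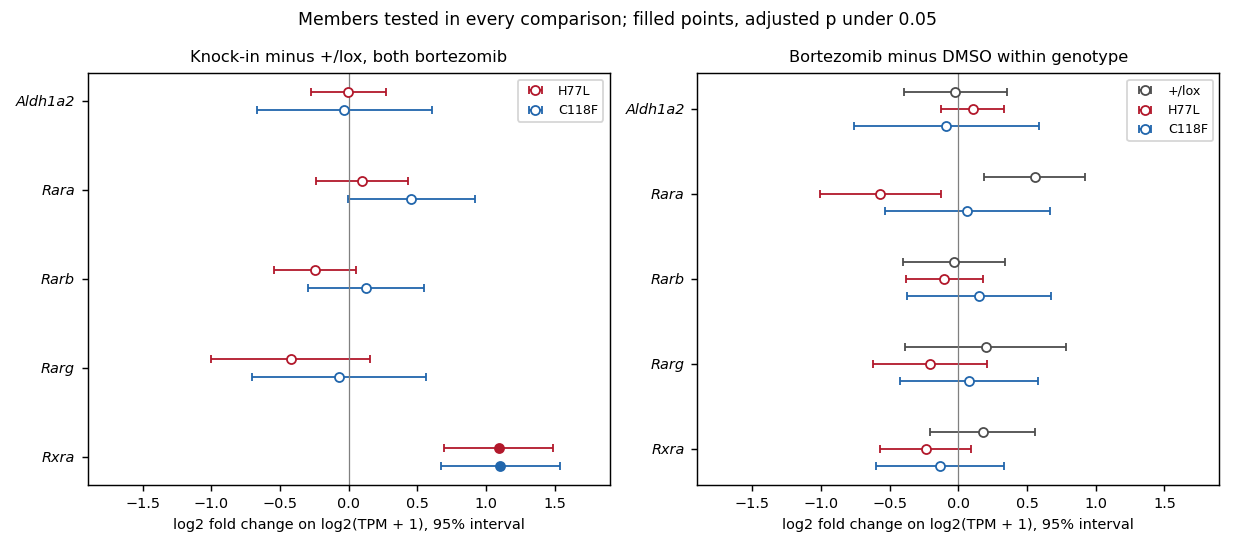
Log2 fold changes on the log2(TPM + 1) scale with 95% intervals for the 5 members that passed the filter in every comparison, for knock-in against +/lox mice under bortezomib (left) and for bortezomib against DMSO within each genotype (right). Filled points are called at an adjusted p under 0.05, which only the 2 points of Rxra are.

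In DMSO-treated +/lox mice the TPM values fell into tiers, which depend on the gene lengths used. Aldh1a2 and Cyp26a1 came first and could not be ordered, since Aldh1a2 was above Cyp26a1 in 3 of 6 mice. Rxrb, a relative of Rxra and not a member, followed with a median of 45.6 TPM, below Cyp26a1 in 6 of 6 mice and above Rarb in 6 of 6. Rarb at 14.0 TPM and Rara at 12.6 TPM could not be ordered (Rarb was above Rara in 4 of 6 mice), and Rara was above Rxra at 8.73 TPM in 6 of 6. Rarg with 6.40 TPM came below, and Aldh1a1 with 1.16, Cyp26b1 with 0.349 and Crabp2 with 0 TPM were last. By TPM, Rxrb was the more abundant partner in these mice. In the knock-in groups its medians were 36.8 to 43.6 TPM, while those of Rxra were 21.7 to 26.1 TPM.

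Around the members stood 63 further genes of the retinoid pathway, written from general knowledge with earlier results of these data known. Under bortezomib 34 of them were tested, of which 7 were higher and 4 lower in H77L/lox mice (32.4% called) and 7 higher and 5 lower in C118F/lox mice (35.3%). The background was 23.6% and 27.5%. Their median log2 difference was 0.03 and 0.12, beside -0.01 and 0.00 over all genes tested. Between bortezomib- and DMSO-treated mice of the same genotype 0 of 33 or 34 were called. Rdh10, Rdh1, Tgm2, Rarres1 and Thra are described below because they were called in the same direction in all 4 comparisons with +/lox mice. Their agreement over these comparisons and an adjusted p under 0.05 in each were thus set by the choice. The adjusted p-values of these genes against +/lox mice are given as a description and are no independent support. How many of all genes separate without overlap was not counted for them either.

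**Figure D4:**
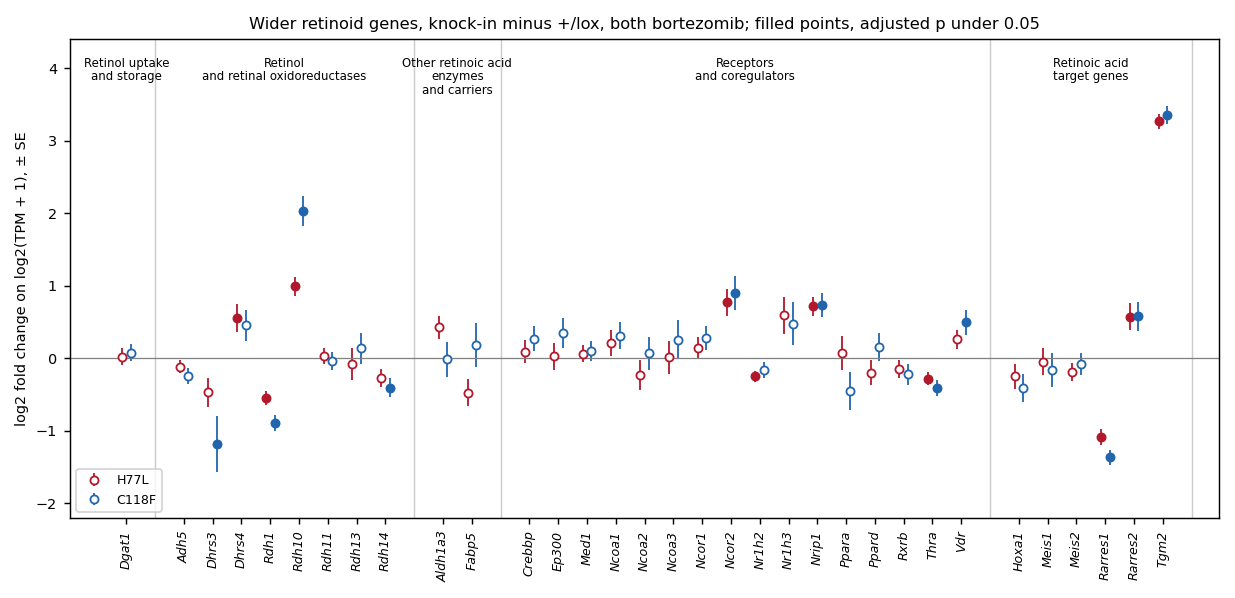
Log2 fold changes on the log2(TPM + 1) scale, with SE, of 33 further retinoid genes in knock-in against +/lox mice under bortezomib, grouped by role, with genes of 2 roles drawn once. Filled points are called at an adjusted p under 0.05, with Tgm2 above 3 and Rarres1 below -1 in both lines.

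Among the retinol and retinal oxidoreductases, 8 of 17 were tested. Rdh10, which makes retinal from retinol and so feeds the Aldh1a step, was higher in both lines. Its median was 15.1 TPM in DMSO-treated and 11.9 TPM in bortezomib-treated +/lox mice, and 25.4 to 59.0 TPM in the knock-in groups. Under bortezomib the rise was 1.00 in H77L/lox (adjusted p = 3.72e-05) and 2.03 in C118F/lox mice (adjusted p = 4.98e-06) on the log2 scale, with no overlap with +/lox mice. Under DMSO it was 1.62 (adjusted p = 0.0139) and 1.88 (adjusted p = 0.00125). One DMSO-treated H77L/lox mouse, replicate 6, had 344 TPM, and without it the rise in this line was 1.09. With the mouse number as a covariate it was 0.80 and no longer called (adjusted p = 0.311). The DMSO-treated H77L/lox mice reached higher numbers than the DMSO-treated +/lox mice, so the number is partly tied to genotype. For calls lost with it, here and below, the parts of number and genotype cannot be told apart. Between the lines under bortezomib Rdh10 was 1.03 higher in C118F/lox mice (adjusted p = 0.0180), but the call was lost when all 35 mice shared the spread (adjusted p = 0.331), as was that of the rise in bortezomib-treated H77L/lox mice (adjusted p = 0.0734).

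Rdh1, another retinol dehydrogenase, was lower. Its medians were 233 and 224 TPM in +/lox mice and 126 to 154 TPM in the knock-in groups, and its log2 difference under bortezomib was -0.55 in H77L/lox mice (adjusted p = 3.72e-04) and -0.89 in C118F/lox mice (adjusted p = 3.28e-05). Under DMSO it was -0.67 (adjusted p = 0.0215) and -0.69 (adjusted p = 4.58e-04). The call in DMSO-treated H77L/lox mice was lost without the filter (adjusted p = 0.0656) and with the mouse number in the fit, where the difference was -0.36 (adjusted p = 0.337). Rdh1 has close paralogs in the same cluster, and since multimapping reads were placed at random its level is uncertain.

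Of the classical target genes of retinoic acid, 9 of 15 were tested under bortezomib. Tgm2, Rarres2 and Nrip1 were among those higher in both lines. Rarres1 was lower in both lines, and Dhrs3 in C118F/lox mice alone, and the lines were not compared for it. Rarres2, Nrip1 and Dhrs3 are named for their calls, after the values were seen.

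Tgm2, a transglutaminase that crosslinks proteins, had medians of 18.2 and 18.1 TPM in +/lox mice and of 182 to 201 TPM in the knock-in groups. Within each treatment the lowest knock-in mouse, with 145 TPM or more, was far above the highest +/lox mouse with 25.6 TPM. The log2 rise was 3.40 and 3.27 under DMSO and 3.27 and 3.36 under bortezomib in H77L/lox and C118F/lox mice (adjusted p = 8.93e-10 or less under bortezomib and 7.97e-09 or less under DMSO). Rarres1, a latexin-like protein named for its response to retinoids, had medians of 620 and 687 TPM in +/lox mice and of 237 to 325 TPM in the knock-in groups, again with no overlap. Its log2 difference was -1.41 and -1.43 under DMSO and -1.08 and -1.37 under bortezomib, with adjusted p-values of 1.79e-06 or less. The 2 target genes with the largest differences thus moved in opposite directions.

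Of the 19 receptors and coregulators outside the set, 16 were tested. Under DMSO 8 were higher and 1 lower in H77L/lox mice (56.2% called) and 0 higher and 1 lower in C118F/lox mice (6.25%), beside 44.8% and 30.4% of all genes. Under bortezomib 2 were higher and 2 lower in H77L/lox and 3 higher and 1 lower in C118F/lox mice (25.0% called in each line). Of all genes tested 23.6% and 27.5% were called, so these counts are near the background. The thyroid hormone receptor Thra is named because it was called lower in all 4 comparisons. Its medians were 51.6 and 50.8 TPM in +/lox and 34.2 to 40.3 TPM in the knock-in groups. Its log2 difference was -0.46 and -0.56 under DMSO and -0.28 and -0.41 under bortezomib. The call in bortezomib-treated H77L/lox mice (adjusted p = 0.0395) was lost in 10 of the 12 fits that left out 1 mouse, with adjusted p-values of up to 0.0913. With the mouse number in the fit, the calls in DMSO-treated H77L/lox mice (adjusted p = 0.0563) and in bortezomib-treated C118F/lox mice (adjusted p = 0.0771) were lost as well. Rxrb and the coactivators and corepressors are drawn in the plot of retinoid genes by role.

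Of the 11 genes of retinol uptake and storage at most 2 were tested, which are not described further. Of the 6 other retinoic acid enzymes and carriers 2 were tested, Aldh1a3 and Fabp5, and neither was called in any comparison with +/lox mice. Aldh1a3, the third enzyme of the Aldh1a step, had group medians of 8.66 to 14.8 TPM. Of the 63 genes 13 did not exceed 1 TPM in any mouse, among them Cyp26c1.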

How the data were processed

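Expression was measured by RNA sequencing of FACS-sorted podocytes from 35 mice. Per the labels and the study's methods, the authors trimmed reads with Trim Galore 0.6.7, aligned them to GRCm39 with STAR, in which a multimapping read is output at 1 position at random, and counted them with featureCounts 1.6.3. Picard is named in the submitters' processing notes. The authors deposited TPM values, which sum to 1000000 in each mouse, and no counts were analysed here. The unit is normalised, so limma took the place of the count test of the study. Groups were taken from the labels, which number mice individually and pair none, so p-values measure the spread between mice.

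Genes were kept when all mice of 1 of the groups compared exceeded 1 TPM, and were fitted as log2(TPM + 1) with limma 3.58.1 (lmFit, eBayes with an intensity trend) in R 4.3.3, on the mice of the groups compared. A fold change on this scale understates that of low genes. Adjustment for multiple tests followed Benjamini and Hochberg over all genes tested. Every p given is two-sided and from limma, and each adjusted p is of this kind. The fits were tested on simulated data. Whole reads were recovered from the TPM steps for 23940 of 23943 genes above 0, and their sums are estimates of the depth. Sequences were read from GRCm39 with starts from GENCODE vM39, in which 32776 of the gene identifiers were found, and protein sequences were not used here. Plots were drawn with matplotlib 3.10.9, and tables were built with pandas 2.3.3, scipy 1.17.1 and numpy 2.4.6 under Python 3.11.15.

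Some items of the design and the lists are not reported here. The members and all lists were chosen with earlier results of these data known. All members are reported, and from the wider lists the up to 12 genes with the largest mean difference among those called in the same direction in all 4 comparisons with +/lox mice (5 qualified) and any called in a bortezomib comparison (0 qualified). The 5 genes nearest to Cyp26a1 in profile are added. Alternatives were a pseudocount of 0.1, no filter on low values, median-ratio scaling, 1 fit with all 35 mice, no intensity trend, the mouse number as a covariate and leaving out each mouse. A limma voom fit on the recovered reads was added after the data had been seen.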

Additional observations from a re-analysis of the deposited data

Results flagged for a closer look

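A mouse stood far from the others of its group in 16 of 89 sets of 5 or 6 values of a member, of Lmx1b or of a named retinoid gene (a gap to the nearest mouse above Dixon's 95% critical value). Chance flags about 1 in 20 such groups, and values near 0 are flagged readily. No difference between bortezomib responses was called for a member.

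Replicate 5 of the DMSO-treated H77L/lox mice was the highest of its group for Cyp26a1 (0.718 TPM, 8 reads), Cyp26b1 (0.433 TPM, 13 reads) and Crabp2 (0.674 TPM, 5 reads). Its sum of tubule markers, 353 TPM, was also the highest of its group. Replicate 5 of the bortezomib-treated H77L/lox mice was highest for Cyp26a1 (0.267 TPM, 3 reads) and Crabp2 (1.20 TPM, 9 reads), and its leukocyte sum of 34.5 TPM was the highest of that group. In replicate 2 of the bortezomib-treated C118F/lox mice, the shallowest library, 6 reads made 2.06 TPM of Cyp26a1.

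Replicate 1 of the DMSO-treated +/lox mice stood out for Aldh1a1 (8.45 TPM), Crabp2 (4.94 TPM) and Rdh10 (31.2 TPM), and it had the highest leukocyte sum of all mice, 356 TPM. Crabp2 was also flagged in 1 DMSO-treated C118F/lox mouse (1.20 TPM, 8 reads) and 1 bortezomib-treated C118F/lox mouse (0.252 TPM, 2 reads). Rarg reached 13.0 TPM in replicate 5 of the DMSO-treated +/lox mice, where the next value was 7.11 TPM. Replicate 1 of the bortezomib-treated H77L/lox mice was the highest of its group for Rxra (33.2 TPM, next 23.4) and for Lmx1b (161 TPM, next 106). Rdh10 reached 344 TPM in replicate 6 of the DMSO-treated H77L/lox mice, where the next value was 44.7 TPM. The parietal marker sum of this mouse, 225 TPM, was the highest of its group. Thra was lowest, at 43.7 TPM, in replicate 5 of the bortezomib-treated +/lox mice. Other mice had a high marker sum without such a value, or the reverse. Replicate 2 of the DMSO-treated +/lox mice, with 1030 TPM of tubule markers, had 0 TPM of Crabp2. The flagged Crabp2 mouse of the DMSO-treated C118F/lox group, replicate 2, had 1.03 TPM of tubule markers. Causes of these values were not tested.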

How the results depend on the processing

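The rise of Rxra under bortezomib kept its direction and call in both lines under the 7 other settings and without any single mouse. The count of called members, Cyp26a1 included, ranged from 0 to 1 over the fits without 1 mouse for the bortezomib response of H77L/lox minus that of +/lox mice, and from 2 to 3 for bortezomib-treated H77L/lox against +/lox mice. The added calls were Rara and Rarg, each without replicate 1 of the bortezomib-treated +/lox mice. For DMSO-treated C118F/lox against +/lox mice, a comparison that chose the set, it ranged from 3 to 4, with Aldh1a1 added without replicate 1 of the DMSO-treated +/lox mice. Direction turned only in differences that were not called. Of the calls of the 5 named wider genes, 136 were kept and 11 lost over these settings, and 234 were kept and 12 lost without a mouse.

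When the number of the mouse entered the fit, the bortezomib difference in +/lox mice was 0.13 for Cyp26a1 and 0.021 for Aldh1a2, and that in C118F/lox mice was -0.30 for Rara and -0.19 for Rarb. Against +/lox mice, Aldh1a2 was then at -0.15 in DMSO-treated C118F/lox and 0.039 in bortezomib-treated H77L/lox mice, Rarb at -0.24 in bortezomib-treated C118F/lox mice, and Rarg at -0.080 and 0.042 in DMSO- and bortezomib-treated C118F/lox mice. Median-ratio scaling gave 0.0076 for Aldh1a2 in bortezomib-treated H77L/lox mice and -0.0038 for the bortezomib difference of Rara in C118F/lox mice. In voom these were 0.0045 for Aldh1a2 and, for the bortezomib difference of Rarg in C118F/lox mice, -0.062. The causes were not tested.

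Leaving out each mouse, Aldh1a2 ranged from -0.071 to 0.14 in C118F/lox mice under DMSO, from -0.28 to 0.24 under bortezomib and from -0.0999 to 0.056 in H77L/lox mice under bortezomib. Its bortezomib difference ranged from -0.33 to 0.18 in C118F/lox and from -0.13 to 0.090 in +/lox mice. The bortezomib difference of Cyp26a1 in +/lox mice ranged from -0.15 to 0.071, of Rara in C118F/lox mice from -0.13 to 0.19, of Rarb in +/lox mice from -0.17 to 0.031 and of Rarg in C118F/lox mice from -0.10 to 0.19. Against +/lox mice, Rarb ranged from -0.19 to 0.073 in C118F/lox mice under DMSO, and Rarg from -0.041 to 0.21 in C118F/lox and from -0.090 to 0.14 in H77L/lox mice under DMSO and from -0.29 to 0.076 in C118F/lox mice under bortezomib.

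No paired analysis was possible because the replicate numbers only name mice and tie none across groups. Depth limits Cyp26b1, Crabp2 and the level of Cyp26a1 in knock-in mice, where a few reads set each value.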
